A study of Mus musculus with 9 samples.

Results

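Chemokine receptors are the surface proteins through which leukocytes sense chemokines, and 9 of their genes are described here: Ccr7, Cxcr4, Ccr6, Ccr2, Cx3cr1, Cxcr3, Ccr1, Ccr9 and Cxcr5. They were chosen by gene symbol from the 45535 rows of the expression table that carry one, and each symbol matched 1 row. All 9 had a mean of at least 10 normalized counts over all samples and were among the 18202 genes tested. The set is named for Ccr7, and it also holds receptors that are best known from other blood cells.

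The samples were CD103-positive lung dendritic cells of C57BL/6J mice, spelled C57/BL6j in the labels, that had received bleomycin, a drug used to injure the lung, for 7 days. In 5 samples RNA was taken directly after collagenase digestion and magnetic bead isolation (before culture), and in 4 samples the isolated cells were first kept for 18 h in RPMI medium with serum and antibiotics (after culture). Every mouse received bleomycin, so both groups share the injury, and the comparison asked how culture alters these cells. Whether each sample is 1 mouse or a pool is not stated in the labels, so p-values measure the spread between these samples. Replicate numbers follow the sample titles. By library name, cultured replicates 1, 2, 3 and 4 carry the numbers of uncultured replicates 1, 3, 4 and 5.

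A chemokine receptor spans the membrane several times and couples to an inhibitory G protein, and binding of its ligand steers the cell up the chemokine gradient. Tissue dendritic cells that mature are known to gain Ccr7, whose ligands Ccl19 and Ccl21 lead them through lymph vessels to the draining lymph node. Inflammatory receptors such as Ccr1 and Ccr2 are known for drawing immature myeloid cells into tissue.

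Depth in rows with a symbol was 14.7 to 28.8 M reads before and 26.0 to 35.3 M reads after culture. Genes that define type 1 conventional dendritic cells, the lung cells that carry CD103, were present in every sample, but the CD103 gene Itgae itself fell from 18138 ± 1537 (SD, n = 5) to 1727 ± 335 (SD, n = 4) normalized counts. A normalized count is a read count scaled for depth and not for gene length. The summed level of 8 such genes ran from 128669 to 155472 before and from 17774 to 19762 after culture, with 7 lower and 1 (Batf3) higher. The summed level of 7 mature dendritic cell genes ran from 28551 to 31531 before and from 118245 to 132695 after culture, and all 7 rose. For all counts of marker genes here and below, the shares over all tested genes were 34.2% higher and 34.6% lower. The preparation also held stromal transcripts: 5 endothelial, 5 fibroblast and 5 epithelial genes summed to between 15551 and 30699 per list before and between 2170 and 6432 after culture. The extraction note in the labels speaks of lung RNA while the cell type label names the dendritic cells. In such bulk samples, fewer cells of a type and less RNA per cell cannot be told apart.

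Of the 9 receptors, Ccr7, Cxcr4 and Ccr6 rose, Ccr2, Cx3cr1 and Cxcr3 fell, and Ccr1, Ccr9 and Cxcr5 did not pass the test. The test was unpaired limma on log2(normalized count + 1), with the Benjamini-Hochberg adjustment over all tested genes and a threshold of 0.05. With a replicate block on library-name numbers, Ccr1 and Ccr9 passed the threshold as well, as given below. The 6 of 9 called compare with 68.8% of all tested genes, so the share called is near that of the whole table. Those 6 were also the ones whose groups did not overlap, against 57.3% of all tested genes without overlap. The 3 higher ones compare with 28.7% of all genes without overlap and higher, and the 3 lower ones with 28.6%. By direction, 3 of 9 rose, where 34.2% of all tested genes did, and 3 of 9 fell, where 34.6% did. The median log2 fold change was 0.07 over the 9 receptors and 0.0065 over all tested genes.

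**Figure D1:**
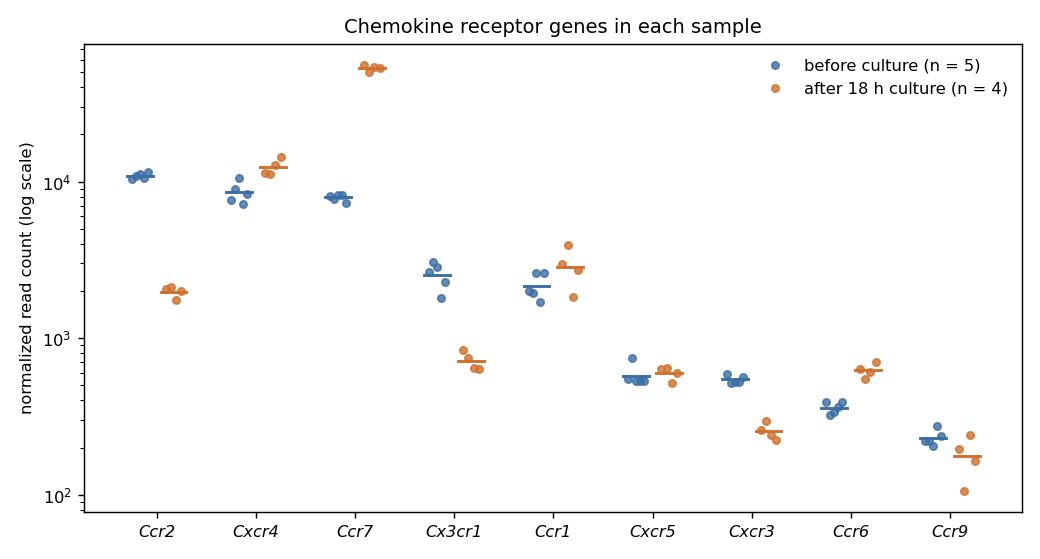
Normalized read count of each of the 9 receptor genes by sample, on a log axis, with points for the 5 samples before and the 4 samples after culture and bars for the group means. Ccr7 rises from about 7918 to 53005, Ccr2 falls from 10869 to 1980, and the points of the groups overlap for Ccr1, Cxcr5 and Ccr9.

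Ccr7, the receptor for Ccl19 and Ccl21 (chr11:99144196-99155077, GRCm38, minus strand, protein coding), had 8032, 7765, 8245, 8204 and 7344 normalized counts in replicates 1 to 5 before culture. After culture replicates 1 to 4 had 55280, 49921, 53498 and 53321. Every cultured sample stood far above every uncultured one, and the replicates of a group lay close together. The mean went from 7918 ± 372 (SD, n = 5) to 53005 ± 2238 (SD, n = 4), which is 6.69-fold higher (log2 fold change 2.74, SE 0.07, limma adjusted p = 4.56e-12 with Benjamini-Hochberg adjustment). This rise ranked 289 among the 18202 tested genes. T cells are another known source of Ccr7. The 7 T cell genes summed to 6254 to 7249 before and 5202 to 6689 after culture. Of them 1 was higher and 3 lower, beside 34.2% and 34.6% of all tested genes. The part of T cells in the Ccr7 result was not tested.

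Cxcr4, the receptor for Cxcl12 (chr1:128588199-128592293, minus strand), had 7655, 8956, 10545, 7228 and 8340 normalized counts before culture. After culture it had 11303, 11174, 12840 and 14367. The lowest cultured sample was above the highest uncultured one by a small margin. The mean rose 1.45-fold, from 8545 ± 1298 (SD, n = 5) to 12421 ± 1502 (SD, n = 4) (log2 fold change 0.54, SE 0.11, limma adjusted p = 0.000761, Benjamini-Hochberg). Neutrophils and B cells also carry Cxcr4, and the summed levels of their marker genes overlapped between the groups. B cell genes summed to 2516 to 4737 before and 2591 to 3603 after culture, and neutrophil genes to 8178 to 15203 and 6857 to 14783. Of 5 tested neutrophil genes 1 was higher and 4 lower (median log2 fold change -4.00). Ly6g was at 0 in all cultured samples. The neutrophil sum thus hides the fall of most of its genes. The part of these cells in the Cxcr4 result was not tested.

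Ccr6, the receptor for Ccl20 (chr17:8236043-8257141, plus strand), had 388, 324, 339, 362 and 388 normalized counts before culture. It had 637, 545, 610 and 699 after culture. The groups were well apart although the gene was among the lower of the 9. The mean rose 1.73-fold, from 360 ± 28.9 (SD, n = 5) to 623 ± 64.0 (SD, n = 4) (log2 fold change 0.79, SE 0.10, limma adjusted p = 9.86e-06, Benjamini-Hochberg). Ccr6 is also known from B cells and type 2 conventional dendritic cells. Of 6 B cell genes, which summed to 2516 to 4737 before and 2591 to 3603 after culture, 1 rose and 1 fell. Of 6 genes of type 2 cells, which summed to 18526 to 25095 before and 14431 to 24455 after culture, 1 rose and 4 fell. Of all tested genes 34.2% rose and 34.6% fell. The part of these cells in the Ccr6 result was not tested.

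Promoter sequences are shown for Cxcr4 and Ccr6, receptors that rose together, and for Ccr1, which did not pass the test and has a motif in common with the window before the second listed start of Ccr6. Each is the 250 bases before a RefSeq gene start (GRCm38.p6), 5′ to 3′ on the strand of the gene, with motif matches in capitals. The RefSeq table held 7 of the 9 receptors and had no entry for Ccr7 and Cxcr5, so the motif search does not cover them. The Cxcr4 stretch is chr1:128592300-128592549 (minus strand), that of Ccr6 lies before its second listed start at chr17:8242276-8242525 (plus strand), and that of Ccr1 is chr9:123968693-123968942 (minus strand).
Cxcr4: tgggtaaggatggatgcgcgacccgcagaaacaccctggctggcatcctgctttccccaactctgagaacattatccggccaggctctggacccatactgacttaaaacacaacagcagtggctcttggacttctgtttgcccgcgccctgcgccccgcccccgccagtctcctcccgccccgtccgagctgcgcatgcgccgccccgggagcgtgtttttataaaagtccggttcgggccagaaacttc
Ccr6: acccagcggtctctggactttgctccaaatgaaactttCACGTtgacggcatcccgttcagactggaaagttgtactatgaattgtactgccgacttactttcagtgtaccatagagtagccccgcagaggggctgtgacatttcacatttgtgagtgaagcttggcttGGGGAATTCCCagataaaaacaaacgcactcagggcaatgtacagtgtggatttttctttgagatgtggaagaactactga
Ccr1: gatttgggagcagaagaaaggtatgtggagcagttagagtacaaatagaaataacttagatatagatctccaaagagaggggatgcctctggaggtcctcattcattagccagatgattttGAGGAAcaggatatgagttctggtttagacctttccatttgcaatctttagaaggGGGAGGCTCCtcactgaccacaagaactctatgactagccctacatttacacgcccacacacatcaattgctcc

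The capitals mark a search on both strands for AP-1 (TGANTCA), IRF (by its name), HIF (ACGTG), NF-kB (also by name) and PU.1 (GAGGAA). The Ccr6 stretch held a pair of overlapping NF-kB matches starting at -81 and -80 from the gene start and a HIF match at -212. The window before the first listed start of Ccr6, chr17:8235793-8236042, held neither motif and had a PU.1 match at -218. The Ccr1 stretch held an NF-kB match at -74 and a PU.1 match at -129. No match was found in these windows for Cxcr4. For scale, 7.25% of 32851 promoters of the same length held an NF-kB match, 16.6% a HIF match and 23.3% a PU.1 match, and a match describes letters only. Among the receptors that fell, the Ccr2 and Cx3cr1 windows held none of the motifs and the Cxcr3 window held a PU.1 match at -14. The window of Ccr9, which did not pass the test, also held none of the motifs.

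Ccr2, the receptor for Ccl2, Ccl7 and Ccl12 that brings monocytes into inflamed tissue (chr9:124101950-124113557, plus strand), had 10358, 10840, 11134, 10503 and 11510 normalized counts before culture. After culture it had 2055, 2118, 1758 and 1988. All cultured samples lay far below all uncultured ones, with little spread in either group. The mean was 5.49-fold lower after culture, 10869 ± 468 (SD, n = 5) against 1980 ± 157 (SD, n = 4) (log2 fold change -2.46, SE 0.07, limma adjusted p = 9.87e-12, Benjamini-Hochberg). Of the 50-base windows of its longest transcript 2.27% also occur in other genes. The 8 monocyte and macrophage genes summed to 29641 to 57679 before and 18592 to 41852 after culture. Of them 1 was higher and 3 lower, beside 34.2% and 34.6% of all tested genes. The part of monocytes and macrophages in the Ccr2 result was not tested.

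Cx3cr1, the receptor for the membrane-bound chemokine Cx3cl1 and a gene of monocytes and macrophages (chr9:119901616-120069879, minus strand), had 2628, 3066, 2851, 1795 and 2288 normalized counts before culture. It had 845, 751, 644 and 637 after culture. The groups did not overlap, and replicate 4 was the lowest of the uncultured samples. The mean was 3.51-fold lower, 2525 ± 500 (SD, n = 5) against 719 ± 98.8 (SD, n = 4) (log2 fold change -1.80, SE 0.14, limma adjusted p = 1.05e-07, Benjamini-Hochberg). The summed level of 8 monocyte and macrophage genes was 48257, 51960, 57679, 29641 and 47132 before and 29023, 41852, 18592 and 31177 after culture, with 1 higher, 3 lower, 4 not past the threshold and none at 0 throughout. Uncultured replicate 4 was the lowest of its group for these markers as well, and the markers' part in the Cx3cr1 result was not tested.

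Cxcr3, the receptor for the interferon-induced chemokines Cxcl9 and Cxcl10 (chrX:101731535-101734269, minus strand), had 593, 517, 527, 523 and 562 normalized counts before culture. It had 261, 294, 240 and 222 after culture. Each cultured sample was well below each uncultured one. The mean was 2.14-fold lower, 545 ± 32.3 (SD, n = 5) against 254 ± 30.9 (SD, n = 4) (log2 fold change -1.10, SE 0.10, limma adjusted p = 4.67e-07, Benjamini-Hochberg). Natural killer cells and plasmacytoid dendritic cells are known to carry Cxcr3. All 5 natural killer cell genes fell, from a sum of 1259 to 2630 before to 255 to 405 after culture, and 3 of 4 tested plasmacytoid dendritic cell genes fell, from 981 to 1196 down to 301 to 340; their part in the Cxcr3 result was not tested.

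Ccr1, a receptor for inflammatory chemokines such as Ccl3, Ccl5 and Ccl9, had 2000, 1934, 2588, 1697 and 2603 normalized counts before culture. It had 2970, 3915, 1835 and 2716 after culture. The groups overlapped because cultured replicate 3 lay within the uncultured range, while the other cultured samples lay above it. The means were 2164 ± 409 (SD, n = 5) and 2859 ± 856 (SD, n = 4), a log2 difference of 0.37 with a 95% interval from -0.03 to 0.77 (limma adjusted p = 0.091, Benjamini-Hochberg). Without cultured replicate 3 the difference was 0.57 (limma adjusted p = 0.00472), and with a correction for GC content and length it was -0.09 (limma adjusted p = 0.732). With a replicate block on library-name numbers it was 0.34 (limma adjusted p = 0.00716). Cultured replicate 2 was the highest and replicate 3 the lowest of the cultured samples for Ccr1 and for the monocyte and macrophage sum. Uncultured replicate 4 was the lowest of its group for both, and it carries the same library number as cultured replicate 3. The part of monocytes and macrophages in the spread of Ccr1 was not tested.

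**Figure D2:**
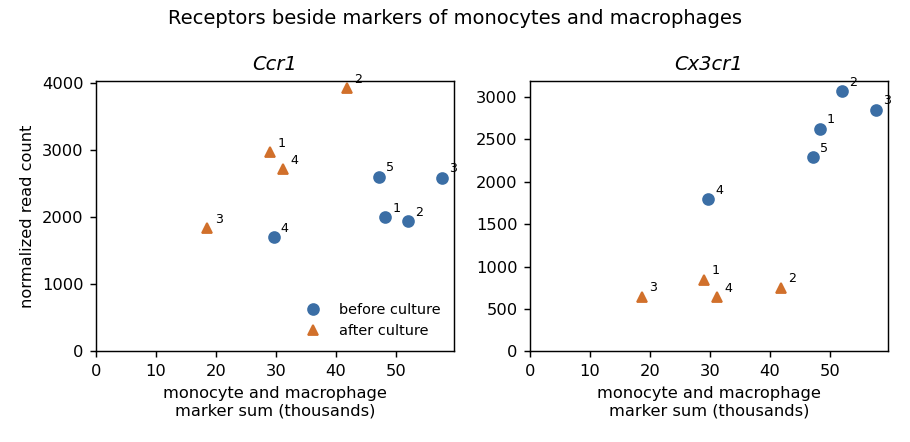
Normalized read counts of Ccr1 and Cx3cr1 (vertical axes) against the summed normalized count of 8 monocyte and macrophage marker genes (horizontal axes), with 1 numbered point per sample. Cultured replicate 3 is lowest for the marker sum and for Ccr1 within its group, and all cultured samples lie between 637 and 845 for Cx3cr1.

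Ccr9, the receptor for Ccl25 that is known for homing to the gut, had 221, 220, 204, 274 and 238 normalized counts before culture. It had 195, 106, 242 and 165 after culture. The groups overlapped through cultured replicate 3. It was the highest of its group, as was uncultured replicate 4, which carries the same library number. The means were 231 ± 26.5 (SD, n = 5) and 177 ± 56.9 (SD, n = 4), a log2 difference of -0.44 with a 95% interval from -0.86 to -0.01 (limma adjusted p = 0.0621, Benjamini-Hochberg). Without cultured replicate 3 it was -0.61 (limma adjusted p = 0.00982), and with a replicate block on library-name numbers -0.45 (limma adjusted p = 0.0147). In the annotation 21.7% of Ccr9 exon bases overlap a gene on the opposite strand, and strandedness of the libraries is not given in the sources used here, so its level is uncertain.

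Cxcr5, the receptor for Cxcl13 that guides B cells into follicles, had 547, 746, 531, 529 and 530 normalized counts before culture. It had 637, 647, 520 and 598 after culture. The cultured values lay inside the uncultured range apart from replicate 3. The means were 576 ± 95.2 (SD, n = 5) and 601 ± 57.6 (SD, n = 4), a log2 difference of 0.07 with a 95% interval from -0.18 to 0.32 (limma adjusted p = 0.622, Benjamini-Hochberg). Uncultured replicate 2 stood apart at 746, and the summed level of 6 B cell genes was also highest there, at 4737 against 2516 to 3222 in the other uncultured samples. The part of B cells in that value was not tested.

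Levels of different genes were compared per kb of the longest annotated transcript. Before culture Cxcr4 (4734 ± 719, SD, n = 5) and Ccr7 (4003 ± 188) were highest and their ranges overlapped, followed by Ccr2 (1898 ± 81.7). Next came Ccr1 (764 ± 145) and Cx3cr1 (562 ± 111), which overlapped, then Cxcr3 (315 ± 18.7), the overlapping Ccr6 (205 ± 16.5) and Cxcr5 (203 ± 33.4), and Ccr9 (44.5 ± 5.1). After culture Ccr7 led at 26797 ± 1131 (SD, n = 4), clear of Cxcr4 at 6881 ± 832 and Ccr1 at 1009 ± 302. Ccr6 (355 ± 36.5) and Ccr2 (346 ± 27.5) then overlapped, as did Cxcr5 (211 ± 20.2) with Cx3cr1 (160 ± 22) and Cx3cr1 with Cxcr3 (147 ± 17.9). Ccr9 was again the lowest (34.1 ± 11.0). Ccr2 thus went from the third place to a level that could not be told from that of Ccr6.

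Within a sample, the share that a gene takes of the 9 receptors per kb does not depend on the scaling between samples. Ccr7 took 31.6 ± 2.64% (SD, n = 5, 29.3 to 35.4%) before and 74.6 ± 1.62% (SD, n = 4, 72.6 to 76.4%) after culture. The Cxcr4 share went from 37.0 ± 2.81% to 19.1 ± 1.89% although its level rose, and the Ccr2 share from 15.0 ± 0.917% to 0.964 ± 0.0969%. The summed level of the 9 per kb ran from 11731 to 14226 before and from 34076 to 37133 after culture. Without Ccr7 the sums overlapped, at 7583 to 10057 before and 8632 to 10176 after culture. The ratio of Ccr7 to Ccr2 normalized counts, also free of that scaling, ran from 0.638 to 0.781 before and from 23.6 to 30.4 after culture.

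**Figure D3:**
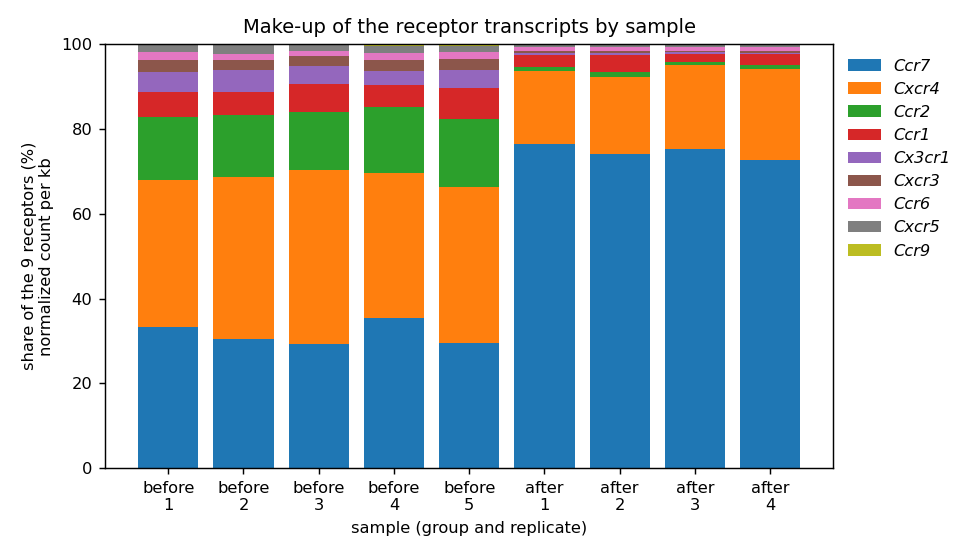
Share of each of the 9 receptors in their summed normalized count per kb of longest transcript (percent, stacked to 100), with 1 bar per sample. Ccr7 takes 29.3 to 35.4% in the 5 samples before culture and 72.6 to 76.4% in the 4 samples after culture.

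Of 14 other chemokine receptor genes, 12 were tested, 2 rose and 6 fell (median log2 fold change -1.19), where 34.2% of all tested genes rose and 34.6% fell. Xcr1, the receptor for Xcl1 that marks type 1 dendritic cells, went from 5836 ± 781 (SD, n = 5) to 114 ± 32.5 (SD, n = 4) normalized counts, 51.3-fold lower (limma adjusted p = 8.53e-12). Ackr3, which takes up the Cxcr4 ligand Cxcl12 without G protein signalling, was 25.3-fold lower (log2 fold change -4.62, limma adjusted p = 6.46e-12). The ratio of Cxcr4 to Ackr3 normalized counts therefore ran from 6.77 to 8.71 before and from 246 to 371 after culture. In bulk samples the 2 transcripts need not come from the same cells. The endothelial and fibroblast sums were 7.02-fold and 6.78-fold lower, and their part in the Ackr3 result was not tested. Ackr2, a scavenger of inflammatory CC chemokines, was 10.8-fold lower, and Ccrl2, which holds chemerin at the cell surface, 11.7-fold lower. Cxcr2, a neutrophil receptor, was 37.8-fold lower while 4 of 5 tested neutrophil genes fell and 1 rose; their part in the Cxcr2 result was not tested. Cxcr6, the receptor for Cxcl16, rose 3.59-fold, from 381 ± 68.4 to 1369 ± 205. Cxcr1 also rose (log2 fold change 0.83, limma adjusted p = 0.0184) with overlapping groups, and Ccr8 fell (log2 fold change -1.23).

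**Figure D4:**
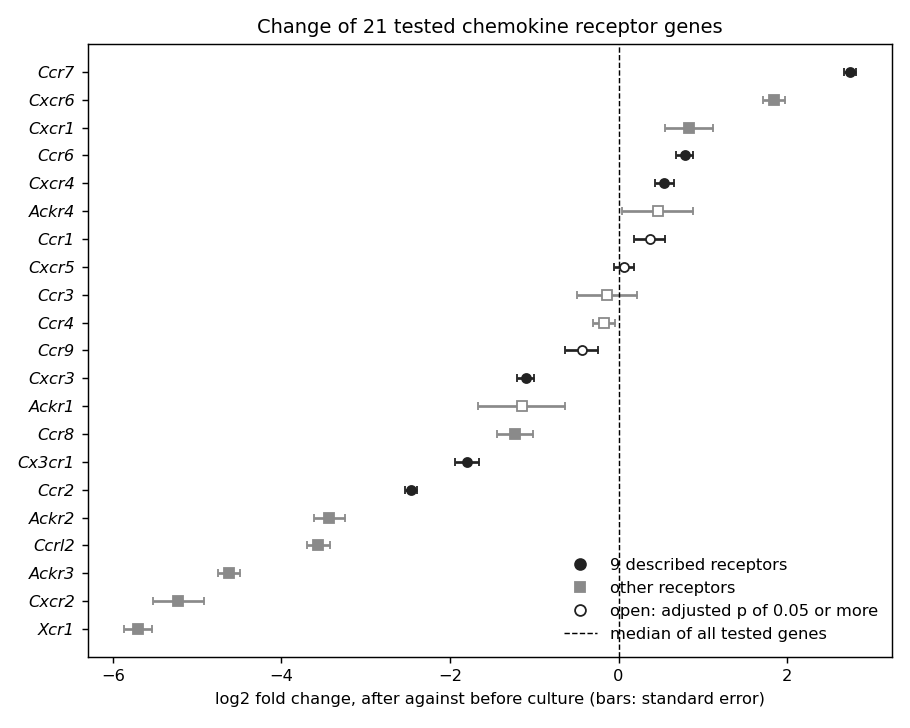
Log2 fold change after against before culture of the 21 tested chemokine receptor genes (points, with standard errors as bars), with the 9 described receptors in black, the others in grey and open symbols at an adjusted p of 0.05 or more. Ccr7 has the highest value at 2.74 and Xcr1 the lowest at -5.70, and the dashed line marks the median of all tested genes.

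Of these 23 receptor genes, 14 lie on chromosome 9 in the annotation, and 7 have their starts within 300 kb of the Ccr1 start, over a span of 424 kb. These neighbours did not move as a block. Cxcr6, 162 kb before the Ccr1 start on the chromosome, rose (log2 fold change 1.85), while Xcr1 at 107 kb before it fell (log2 fold change -5.70). Ccr1 and Ccr2 start 133 kb apart and had log2 values of 0.37 and -2.46. Outside the cluster, Cx3cr1 and Ccr8 start 22.2 kb apart and both fell.

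**Figure D5:**
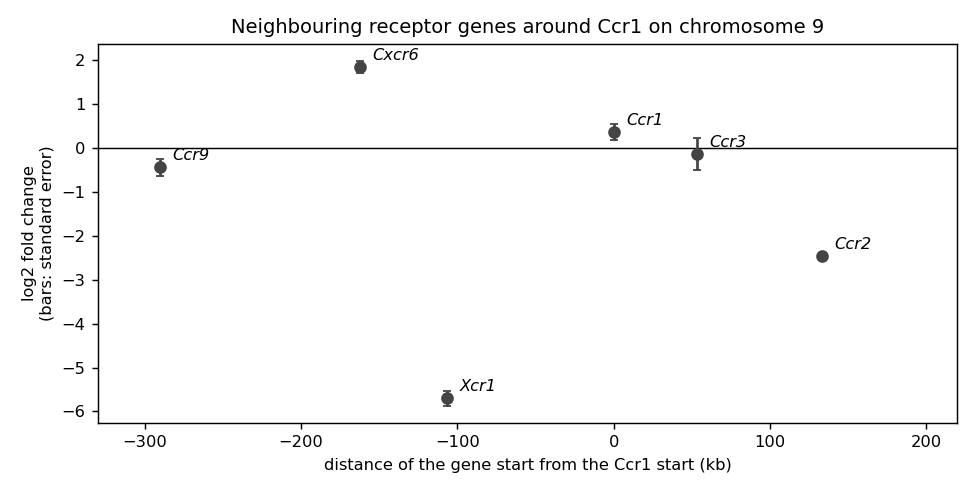
Log2 fold change (points, with standard errors as bars) of the 6 tested receptor genes whose starts lie within 300 kb of the Ccr1 start on chromosome 9, against the distance of their start from it in kb. Values run from -5.70 for Xcr1 to 1.85 for Cxcr6, with Ccr1 at 0.37 and Ccr3 at -0.14.

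Of 19 ligand genes of the 9 receptors, 18 had a row and 13 were tested, of which 5 rose and 6 fell (all tested genes: 34.2% and 34.6%). Of the Ccr7 ligands, Ccl19 was given 0 to 2 reads, Ccl21a 0 to 1 and Ccl21b 0 in any sample. In the annotation 59.1% of the 50-base windows of Ccl19, 71.6% of those of Ccl21a and 100% of those of Ccl21b also occur in other genes, so reads from them may not have been assigned and these low counts are uncertain. Ccl20, the ligand of Ccr6, had 0 to 4 reads. Cxcl12, the Cxcr4 ligand made by stromal cells, was 2.32-fold lower, with the endothelial and fibroblast sums lower as given above. The Cxcr3 ligands Cxcl9 and Cxcl10 were 47.6-fold and 7.17-fold lower, beside the fall of their receptor. In contrast Cx3cl1 rose 2.86-fold, from 922 ± 102 (SD, n = 5) to 2638 ± 152 (SD, n = 4), while its receptor Cx3cr1 fell. Ccl25, the Ccr9 ligand, rose 2.20-fold, and Cxcl13, the Cxcr5 ligand, was 5.15-fold lower.

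Among ligands of Ccr1, Ccl5 rose 8.01-fold and Ccl9 rose 4.09-fold, while Ccl3 was 3.29-fold lower. Of the Ccr2 ligands, Ccl12 fell from 59.9 ± 34.9 to 1.87 ± 1.30, and Ccl2 had a log2 difference of -0.16 (95% interval -0.75 to 0.43, limma adjusted p = 0.619). Ccl7, another Ccr2 ligand, passed narrowly (log2 fold change 0.63, limma adjusted p = 0.0439), and it lost the call without cultured replicate 2 (0.38, adjusted p = 0.154), without cultured replicate 3 (0.64, adjusted p = 0.0612) and without uncultured replicates 1, 2 or 4 (0.58, 0.59 and 0.47). It was also not called after the GC and length correction (0.22, limma adjusted p = 0.53) or with no filter on low values (0.63, limma adjusted p = 0.0502). Ccl6 did not pass the test.

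Of 10 genes of G protein coupling, 2 rose and 6 fell, beside 34.2% and 34.6% of all tested genes. Gnai3, an inhibitory G protein subunit, rose 2.05-fold, and Pik3r5, which links G proteins to the lipid kinase PI3K gamma, rose 2.02-fold. Plcb2, the phospholipase that the released G protein subunits activate, was 2.48-fold lower (log2 fold change -1.31). Gnai2, the most studied of these subunits in leukocytes, fell by 0.48 on the log2 scale, a call lost after the GC and length correction (0.0312, limma adjusted p = 0.795). Of 13 genes that switch receptors off, 1 rose and 6 fell, beside the same 34.2% and 34.6%. The receptor kinase Grk3 rose 1.75-fold, and Grk2 fell by 0.57 on the log2 scale (-0.0223 and not called after the correction), whereas the G protein regulators Rgs2 and Rgs18 were 4.96-fold and 9.10-fold lower. Rgs1 had a log2 difference of 0.19 (95% interval -0.07 to 0.45), which was 0.31 without cultured replicate 2 (limma adjusted p = 0.0215) and -0.31 after the correction (limma adjusted p = 0.00691).

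Of 14 genes of the migration machinery, 3 rose and 7 fell, where 34.2% of all tested genes rose and 34.6% fell. Fscn1, which bundles actin in the processes of mature dendritic cells and also stands among the 7 mature dendritic cell genes above, rose 6.41-fold, against 6.69-fold for Ccr7. The other rises, of the small GTPases Cdc42 (log2 fold change 0.43) and Rhoa (0.21), were no longer called after the GC and length correction (0.12 and 0.039), and Rhoa was also not called without uncultured replicates 1, 2 or 5 or cultured replicates 2 or 4 (0.16 to 0.21). Tiam1, an activator of Rac, was 4.15-fold lower, and Dock8, an activator of Cdc42, fell by 0.50 on the log2 scale (-0.10 and not called after the correction). Of 7 cofactors of Ccr7-guided migration, 3 rose and 2 fell, beside the same 34.2% and 34.6%. Nrp2, a carrier of polysialic acid, rose 6.13-fold, the polysialyltransferase St8sia4 3.75-fold and the leukotriene exporter Abcc1 3.74-fold. Gpr183, an oxysterol receptor, and Ptger4, a prostaglandin E2 receptor, had log2 fold changes of -0.93 and -0.67. The Ptger4 value is uncertain, since 25.7% of its 50-base windows also occur in another gene.

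The 5 genes whose profile over the 9 samples was most like that of Ccr7 were Mmp25, AW112010, Tmem123, Rnf157 and Adgrg6. Likeness was the root mean square difference of log2 values after removal of each gene's mean, among 11785 other genes with a mean of at least 100. It was 0.0874 for Mmp25, a membrane-anchored matrix metalloproteinase, and 0.114 for Adgrg6, an adhesion receptor. Mmp25 went from 2219 ± 162 (SD, n = 5) to 14774 ± 932 (SD, n = 4) normalized counts, a log2 fold change of 2.74. With 2 groups so far apart, this measure mostly reads the size of the change.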

How the data were processed

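Gene expression was measured by RNA sequencing in 5 samples before and 4 after culture, grouped by title. The authors deposited 1 table of normalized counts per gene, a signal scaled between samples. Per the submitters' processing notes DESeq2 and GRCm38 were used; the aligner, counting tool, annotation and strandedness are not given in the sources used here. Within 0.001, 100% of the deposited values came out as whole reads once divided by the value of a single read, so the reads per gene were recovered. The 3782 rows without a symbol (6.43 to 10.9% of reads before, 3.87 to 5.46% after culture) were left out.

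Genes with a mean of at least 10 were fitted as log2(value + 1) by limma 3.58.1 (R 4.3.3) with a term for group, a mean-variance trend and two-sided tests, adjusted by Benjamini-Hochberg over 18202 genes. On recovered reads edgeR 4.0.16 called 12562 genes and DESeq2 1.42.0 called 12663, against 12524 with limma. Log2 fold changes refer to log2(value + 1) and understate changes of low genes, and folds written as "-fold" are ratios of group means. Reads carry no molecular identifiers, so the replicate spread was used as the error. Gene positions, lengths and shared 50-base windows came from GENCODE on GRCm38, possibly another annotation than the authors' own. The limma and edgeR fits were also run on simulated counts in which far fewer genes changed than were called here. That setting is unlike these data, so it does not measure how the fits perform on them.

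The 9 receptors and all lists were chosen with earlier results of these data known. The text may name all 9, any gene of the lists of other receptors, ligands, signalling, migration and cell type markers, and the 5 genes most like Ccr7. Not every gene of the lists is printed, and 1 other receptor is not reported here. Alternatives were other pseudocounts, filters and scalings, count models, replicate blocks, leaving out each sample, union exon lengths, and removal of each sample's trend over GC content and length.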

Additional observations from a re-analysis of the deposited data

Results flagged for a closer look

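The 23 receptor genes and the Ccr7 share gave 48 groups of 4 or 5 samples, of which 3 had a sample far from the others, where chance gives about 1 in 20 groups, or 2.4. Cxcr5 was at 746 normalized counts in uncultured replicate 2. Cxcr1 was at 63.7 and Cxcr2 at 42.5 in cultured replicate 2, the first below and the second above the other cultured samples.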

How the results depend on the processing

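Ccr7, Ccr2, Ccr6, Cxcr3, Cxcr4 and Cx3cr1 kept their direction and side of the threshold in all 21 alternatives each. Ccr1 (0.37) was 0.40 with upper quartile scaling, ran from 0.20 to 0.57 on leaving out each sample, and was -0.0945 after the GC and length correction. Ccr9 (-0.44) ran from -0.61 to -0.21 on leaving out each sample and was -0.57 after that correction, and Cxcr5 (0.07) was then 0.38; the values of Ccr9 and Cxcr5 after the correction, of Ccr1 with upper quartile scaling, and of both Ccr1 and Ccr9 without cultured replicate 3 passed the threshold. The correction covered 96.3% of tested genes, moved the median of all genes to 0.13, and raised the number of higher genes among the 44 of signalling, migration and Ccr7 cofactors from 9 to 14; the cause was not tested. It turned Gnai2 to 0.0312, Rgs1 to -0.31 and Ccl6 to -0.21. Ccr3 was 0.0259 with quantile normalization and ran from -0.41 to 0.17 on leaving out each sample, Ccr4 was 0.008 with quantile normalization, and on leaving out each sample Ccl6 ran from -0.27 to 0.19 and Ccl2 from -0.41 to 0.0014. A replicate block on the library-name numbers gave Ccr1 0.34 (adjusted p = 0.00716) and Ccr9 -0.45 (adjusted p = 0.0147), and a replicate block on title numbers gave Ccr3 0.0287; all genes called were 12865 and 11656. Same-numbered deviations correlated at 0.04 to 0.35 by library name, and each cultured sample correlated best with its own number. By title they correlated at -0.21 to 0.08. The labels state no pairing, so the main test was unpaired, but a pairing by library name remains possible. With it Ccr1 and Ccr9 would pass the threshold, as given above. Of 49 called genes on the other 6 lists, 40 kept their call in every alternative.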
